A study of Mus musculus with 24 samples.

Results

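The genes described here encode parts of motile cilia and the transport machinery that builds cilia of every kind. They are the 83 genes of 19057 on the array whose symbols begin with Dnah, Dnaic, Dnali, Dnaaf, Tekt, Rsph, Cfap, Ift or Bbs (a number following where the family is numbered), together with Foxj1, Zmynd10, Spag6, Spag16, Spag17, Spata18 and 1110017D15Rik. The families were taken by symbol, and the set was put together with earlier results of these arrays known. By symbol, 59 were classed with the motile axoneme or its making: 13 dynein arm genes, 7 arm assembly genes, 3 tektins, 8 radial spoke and central pair genes, 27 Cfap genes and the regulator Foxj1. All Cfap genes were included by name, among them Cfap410, a protein of the cilium base, and Cfap20, also found outside cilia. A further 22 serve ciliary transport, 14 as intraflagellar transport (IFT) genes and 8 as Bardet-Biedl syndrome (BBS) genes. Spata18 and 1110017D15Rik were left unclassed.

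A cilium is a microtubule stalk that grows from a basal body at the cell surface. Most cells can carry a single immotile primary cilium, which serves signalling, whereas multiciliated cells of the airways, the brain ventricles, the oviduct and the efferent ducts of the testis carry many motile ones. Beating needs dynein arms, radial spokes and a central microtubule pair, which the primary cilium lacks, and sperm tails are built from many of the same parts. Both kinds of cilium are assembled by IFT particles, and the BBSome, a coat of BBS proteins, carries membrane proteins along them. Fat cell precursors are known to carry a primary cilium, bile duct cells carry one too, and adult hepatocytes generally do not.

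Gene expression was measured with Illumina bead arrays in liver and epididymal white adipose tissue (EWAT) of male C57BL/6J mice on normal chow. Every animal had been injected intraperitoneally 48 hours earlier, with antisense oligonucleotides against SOX6, a transcription factor, or with control oligonucleotides, so no group was left uninjected. Each tissue was represented by 4 control samples, C1 to C4, and 4 SOX6 samples, S1 to S4. The labels do not say whether liver and EWAT samples of 1 number came from 1 mouse.

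Of the 24 arrays, 10 held EWAT and 14 liver, and samples with repeat arrays were averaged. Probes with a detection p-value under 0.05 against the array's negative controls, called detected here, made up 41.5% to 45.9% of an EWAT array and 32.9% to 36.4% of a liver array. All levels below are log2 levels normalized within a tissue, except in tests between the tissues, which used levels normalized together. EWAT and liver levels given side by side outside those tests are thus on separate scales. All 9 mature adipocyte markers were detected in all 8 EWAT samples, and each of 10 hepatocyte markers was detected in liver. In EWAT 4 of these 10 (Alb, Fgb, Cps1 and Tat) were undetected, 5 were detected in some samples at up to 5.66, and Cyp2e1, which fat also expresses, was at 14.24 to 14.49. Ttr read 5.58 in C3 and 5.50 in S3 and Apoa1 5.16 and 5.04, above the other 6 samples. The single detected Sox6 probe read 6.14, 6.19, 5.45 and 5.85 in control EWAT and 5.54, 5.12, 5.74 and 4.94 in SOX6 EWAT, and the groups overlapped. Its difference of -0.57 did not pass limma's test (95% interval -1.10 to -0.05, adjusted p = 0.841), and in liver the difference was -0.15 (adjusted p = 0.736).

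The motile genes were high in 2 EWAT samples of opposite treatment, control C3 and SOX6 S3, and mostly at background in the other 6. The median level of the 59 motile genes was 5.90 in C3 and 5.71 in S3. In C1, C2, C4, S1, S2 and S4 that median lay between 4.43 and 4.46, and in the 8 livers between 4.40 and 4.47. Detected motile genes numbered 39 in C3 and 39 in S3, against 11 to 16 in each of the other 6 EWAT samples and 9 to 11 in each liver. C3 and S3 had been singled out in earlier results of these arrays, so their values are given as a description, with no test.

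**Figure D1:**
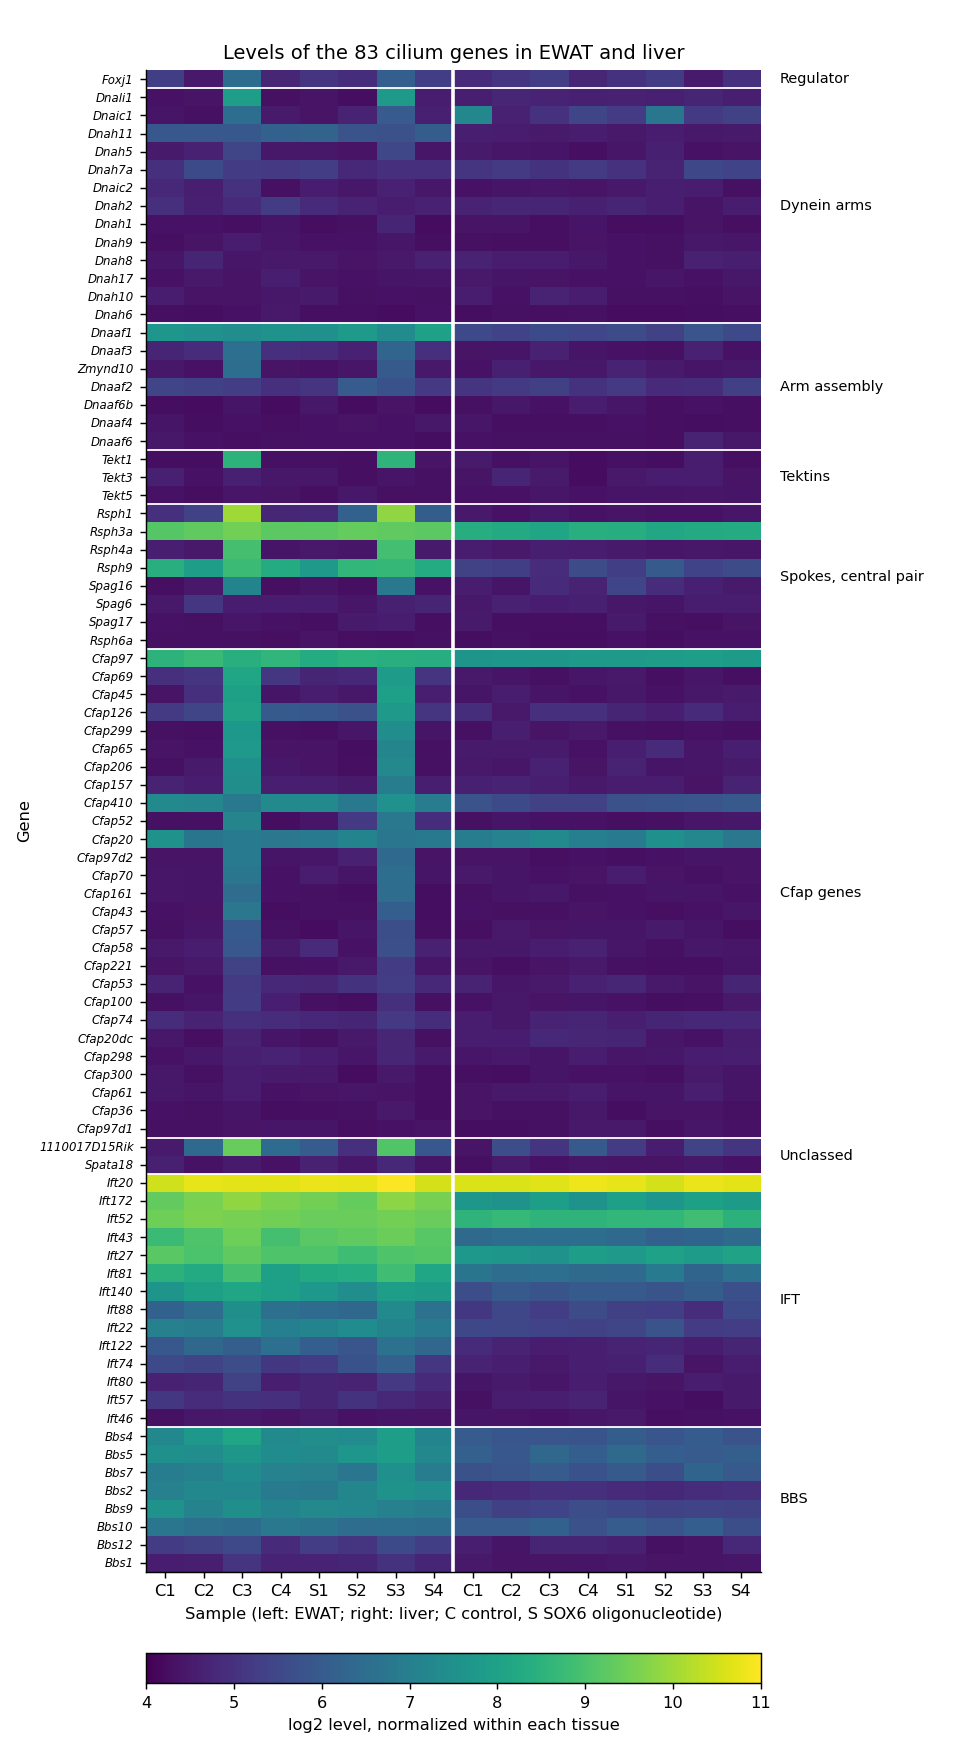
Heat map of the log2 level of the 83 genes (rows, by family) in the 8 EWAT samples (left) and the 8 liver samples (right), each tissue normalized on its own. Columns C3 and S3 of EWAT stand out among the dynein, tektin, spoke and Cfap genes, while most IFT and BBS genes are above background in every EWAT sample.

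Both C3 and S3 exceeded all 6 other samples in 31 of the 59 motile genes (52.5%) and in 10 of the 22 IFT and BBS genes (45.5%). Over all 19057 genes of the array this held for 8.52%. Both samples were at least 1 log2 unit above the highest of the other 6 in 21 motile genes (35.6%), in no IFT or BBS gene and in 1.63% of all genes. The excess of C3 over the median of the other 6 reached 4.81 among motile genes and 0.996 among IFT and BBS genes, and that of S3 reached 4.66 and 0.84. A log2 excess depends on the level it starts from, and most motile genes started from background. On the linear scale the median excess of C3 was 9.2 units over the motile genes and 33.2 over the IFT and BBS genes, and that of S3 was 11.3 and 27.9. Ift81 gained 182.3 linear units in C3, Zmynd10 70.6 and Rsph1 984.1. Over all genes the median excess in log2 units was -0.02 in both samples. In a bulk sample, more cells of a type and more RNA per cell cannot be told apart.

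**Figure D2:**
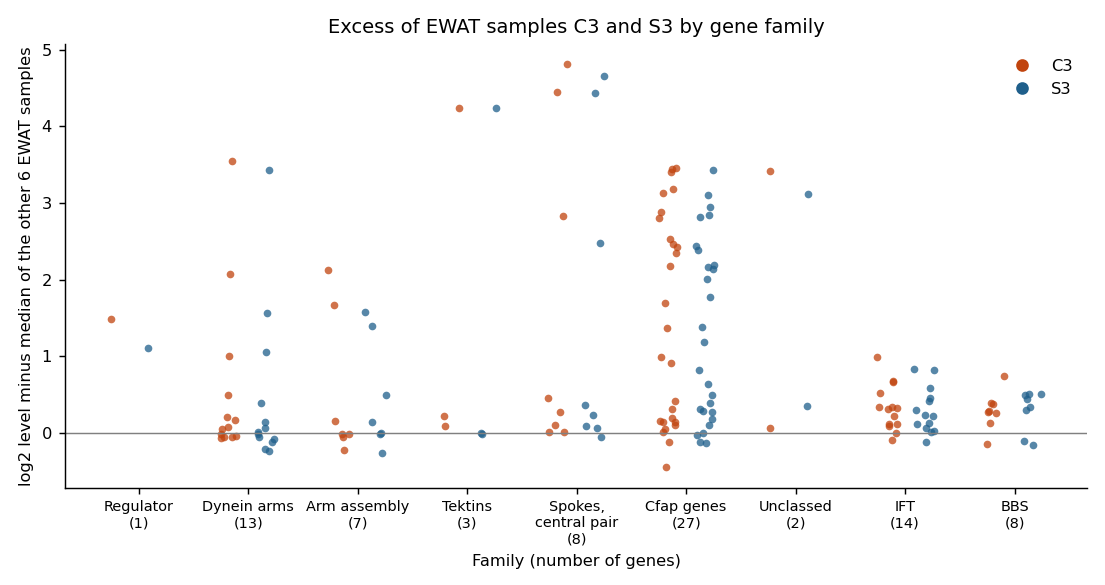
Excess of EWAT samples C3 and S3 over the median of the other 6 EWAT samples, in log2 units, for each gene by family, with 1 point per gene and sample. Points above 1 lie in the regulator, dynein arm, assembly, tektin, spoke, Cfap and unclassed families, and the highest IFT point is at 0.996.

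Foxj1, the transcription factor that switches on the motile cilium programme, was highest in C3 and S3 but not absent elsewhere. Its EWAT levels were 5.29, 4.48, 6.48 and 4.75 in C1 to C4 and 5.07, 4.92, 6.10 and 5.30 in S1 to S4. It was detected in 6 of the 8 EWAT samples and 6 of the 8 livers, where it lay between 4.50 and 5.28. C3 and S3 were thus the 2 highest samples, with C1 and S4 next at 5.29 and 5.30.

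Dynein arms are the motors of the motile cilium. Dnali1, a light intermediate chain of the inner arm, read 7.90 in C3 and 7.78 in S3 and 4.26 to 4.53 in the other 6. Dnaic1, an intermediate chain of the outer arm, read 6.52 and 6.02 against 4.32 to 4.69, and Dnah5, an outer arm heavy chain, 5.45 and 5.50 against 4.36 to 4.65. These 3 were detected in no EWAT sample other than C3 and S3. By contrast, 6 heavy chain genes, Dnah1, Dnah6, Dnah8, Dnah9, Dnah10 and Dnah17, were detected in no EWAT sample and no liver. Dnaic2 was detected only in C3, at 5.0.

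Other dynein heavy chain genes gave readings that depended on the probe. Dnah11, an outer arm heavy chain, was flat at 5.74 to 6.24 over the 8 samples by its brighter probe, which has levels of 4.47 to 4.58 in the livers and was detected in none of them. Its second probe read 5.82 in C3 and 5.66 in S3 and 4.22 to 4.38 elsewhere in EWAT. Dnah2, an inner arm heavy chain, showed the same split: 4.53 to 5.24 with no excess in C3 or S3 by the probe shown, and 5.93 and 5.58 by another probe that read 4.23 to 4.30 in the other samples save C4, at 4.98. Dnah7a, a heavy chain with near-identical copies in the mouse, was flat at 4.80 to 5.58. In RefSeq's GRCm38.p6 annotation Dnah11 overlaps Cdca7l by 731 bases, and where each probe lies is not given in the sources used here.

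Arm assembly factors fold dynein arms in the cytoplasm before transport. Zmynd10 read 6.52 in C3 and 5.98 in S3 and 4.34 to 4.49 in the other 6, in none of which it was detected. Dnaaf3 read 6.54 and 6.28 against 4.64 to 4.98. Dnaaf2 ranged from 4.95 to 6.02, with its highest level in S2, and Dnaaf4, Dnaaf6 and Dnaaf6b were detected in no sample of either tissue. Dnaaf1 was flat at 7.376 to 8.004 by its brighter probe, but a second probe read 6.96 in C3 and 6.74 in S3 and 4.32 to 4.56 elsewhere. Dnaaf1 (chromosome 8, 119575235 to 119598454) overlaps Taf1c by 481 bases, and the 1 Taf1c probe read 4.40 to 4.83 in EWAT. Counting any probe of a gene rather than the probe shown, 23 of 59 motile genes were at least 1 log2 unit higher in C3 and S3, the 2 added genes being Dnaaf1 and Dnah11. Such a count can only add genes. Of all 102 probes of the motile genes, 26 met the same mark.

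Tektins are filaments inside the doublet microtubules of motile cilia and sperm tails. Tekt1 read 8.54 in both C3 and S3 and 4.25 to 4.36 in the other 6 samples, and its second probe gave 8.40 and 8.23 against 4.26 to 4.51. Tekt3 and Tekt5 were detected in no EWAT sample, at 4.28 to 4.62 and 4.27 to 4.46. In the livers Tekt1 lay between 4.25 and 4.53 and was not detected.

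Radial spokes link the outer doublets to the central pair and regulate the beat. Rsph4a, a spoke head protein, read 8.93 in C3 and 8.92 in S3 against 4.40 to 4.60 in the other 6. Rsph1, also of the spoke head, gave the highest motile gene readings of C3 and S3, 9.99 and 9.84. It was detected in 4 of the other 6, which read 6.19 in S2, 6.06 in S4, 5.39 in C2, 4.98 in C1, 4.80 in S1 and 4.77 in C4. Rsph9 of the spoke head and Rsph3a of the stalk were well expressed in all 8 EWAT samples. Rsph9 read 8.39, 7.90, 8.76 and 8.31 in C1 to C4 and 7.79, 8.62, 8.67 and 8.30 in S1 to S4, so that C3 and S3 led S2 by only 0.14 and 0.04. Rsph3a, which has a near-identical copy, lay between 9.15 and 9.51, and the spoke gene Rsph6a was detected nowhere.

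Of the central pair genes, Spag16 followed the pattern, with 7.15 in C3 and 6.81 in S3 against 4.28 to 4.47, and Spag17 was detected in no sample of either tissue. Spag6 was detected in C2 alone, at 5.10, and read 4.55 in C3 and 4.63 in S3. Spag6l, its close relative, which is outside the chosen set, read 8.24 in C3, 7.87 in S3 and 4.29 to 4.45 in the other 6 by one probe. A second Spag6l probe read 5.66 and 5.53 against 4.26 to 4.61, and the remaining probe detected nothing. The Spag6 probe and the brightest Spag6l probe thus differed in which samples they read as high.

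Cfap genes encode cilia- and flagella-associated proteins of varied location, and 20 of the 27 were highest in C3 and S3, 13 of them by at least 1 log2 unit. The 20 include Cfap36, which was detected in no EWAT sample, and Cfap20dc, which was detected in 1. Cfap69, a central pair protein, read 8.15 and 7.84 against 4.72 to 5.11, and Cfap45, which lies inside the doublet microtubules, 7.97 and 7.95 against 4.38 to 4.97. Cfap126, which helps to position basal bodies, read 8.03 and 7.80 against 5.09 to 5.98 and was detected in 7 EWAT samples. The microtubule inner protein Cfap52 read 7.17 and 6.81 in C3 and S3, 5.20 in S2, 4.93 in S4 and 4.25 to 4.41 in the remaining 4. Its next highest samples were thus those that also followed in Rsph1.

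Most of the other high Cfap genes were undetected outside C3 and S3. Cfap299 read 7.73 and 7.42 against 4.28 to 4.43, Cfap65, a central pair protein, 7.79 and 7.19 against 4.26 to 4.38, and Cfap206, of the spoke base, 7.53 and 7.28 against 4.28 to 4.50. Cfap157 (7.46 and 6.97), Cfap97d2 (6.92 and 6.41), Cfap43 (6.78 and 6.09), Cfap70 (6.74 and 6.53), Cfap161 (6.51 and 6.50) and Cfap57 (5.99 and 5.69) completed this group, and none of the 6 exceeded 4.66 in another EWAT sample. A second Cfap161 probe was undetected throughout EWAT, at 4.37 in C3, 4.39 in S3 and up to 4.41 elsewhere. Of all 21 motile genes with the larger excess, 15 were detected in none of the other 6 EWAT samples. Cfap58, Cfap221, Cfap100 and Cfap53 were higher in C3 and S3 by smaller amounts, from 0.17 to 1.06 above the highest other sample.

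Some Cfap genes did not take part. Cfap97 lay between 8.29 and 8.71, Cfap410 between 6.82 and 7.55 and Cfap20 between 6.72 and 7.60 in the 8 EWAT samples, with C3 and S3 inside the range of the other 6 for Cfap20. All 3 were detected in every liver as well. Cfap61, Cfap300, Cfap36 and Cfap97d1 were detected in no EWAT sample. Cfap36 is thus counted above among genes highest in C3 and S3 on undetected readings. In all, 17 motile genes were detected in none of the 8 EWAT samples and 9 in all 8.

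Of the unclassed genes, 1110017D15Rik read 9.38 in C3 and 9.09 in S3, but 5.91 to 6.44 in C2, C4, S1 and S4 by its brightest probe. Its other 2 probes read 8.85 and 8.66, and 7.79 and 7.55, against 4.31 to 4.47 elsewhere. Spata18 was detected in S3 alone, at 4.77. The order of C3 and S3 was steady: C3 was the higher in 20 of the 21 motile genes with the larger excess, by a median of 0.30, the exception being Tekt1, at 8.54 in both.

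**Figure D3:**
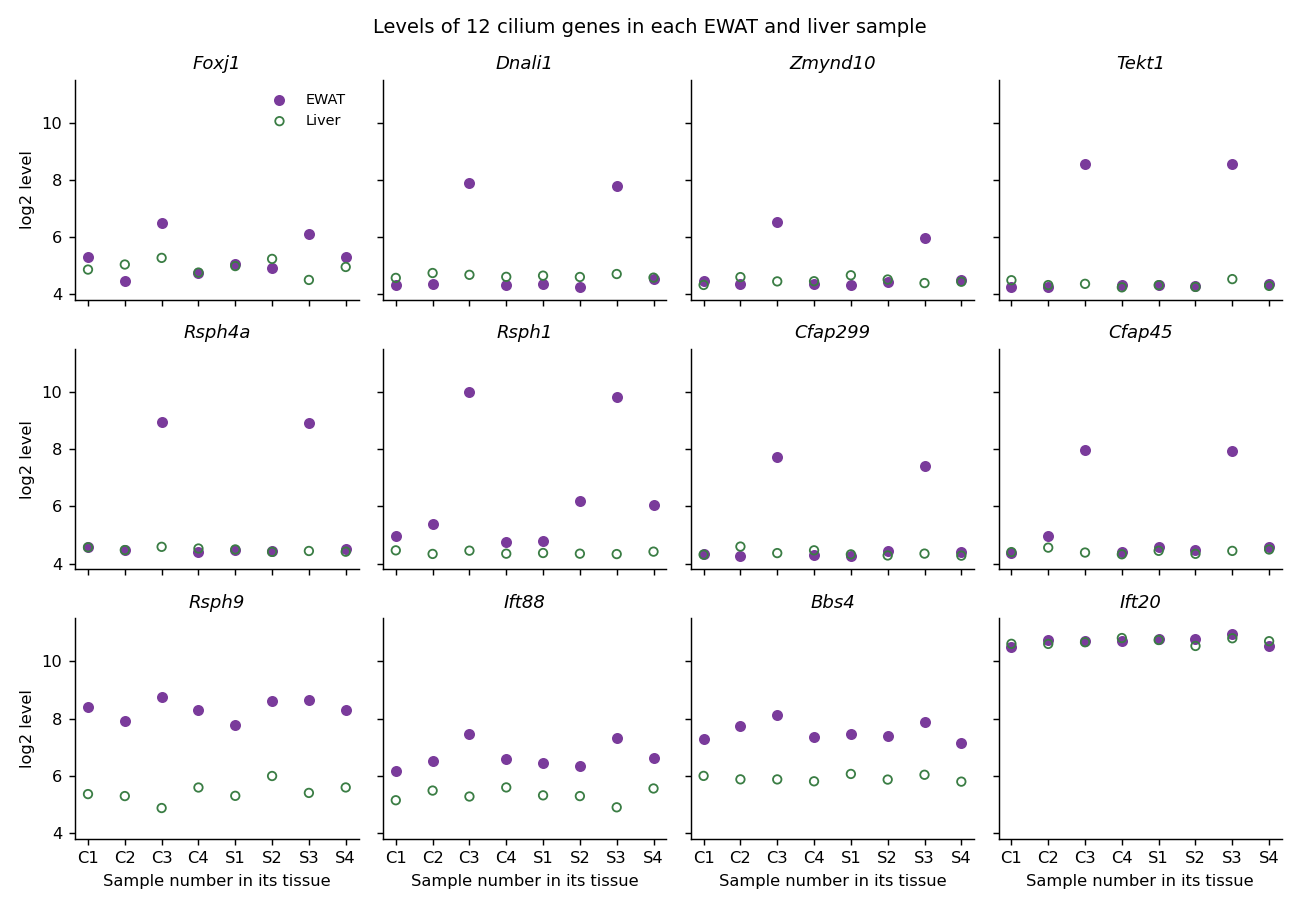
Log2 level of 12 genes in each of the 8 EWAT samples (filled) and 8 liver samples (open), on 1 common axis, each tissue normalized on its own. Dnali1, Zmynd10, Tekt1, Rsph4a, Cfap299 and Cfap45 are high in EWAT C3 and S3 alone, Rsph1 also rises above background in S2 and S4, and Rsph9, Ift88, Bbs4 and Ift20 are above background throughout EWAT.

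Genes of motile cilia and of ciliary transport are known targets of RFX factors, which bind the X-box. RefSeq promoters of GRCm38.p6 (250 bases before to 50 after the first listed start) were at hand for 71 of the 83 genes and were searched on both strands for the X-box half-site GTTGCC. A half-site was present in 28 of 71 (39.4%), in 20 of 50 motile genes (40%), in 8 of 19 IFT and BBS genes (42.1%) and in 12.7% of all 27025 promoters of the table. A pair of half-sites, GTTNCC followed within 0 to 3 bases by GGNAAC, was present in 6 of 71 (8.45%) against 0.821% of all promoters, and a pair can share bases with a half-site. Among 17 genes with the larger excess in C3 and S3, 5 held a half-site (29.4%) and none a pair. The forkhead motif GTAAACA was present in 4 of 71 (5.63%) and in 3.55% of all promoters. A match is a description of these letters and not of a bound site.

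The 250 bases before the start are shown, 5′ to 3′ in the direction of the gene, for 3 genes that were high in C3 and S3 and for 2 transport genes that hold a pair. Half-sites and pairs are in capitals. Tekt1 lies at chr11:72361883-72362132 (minus strand) and Spag16 at chr1:69826720-69826969 (plus strand), with 2 half-sites each. Cfap161 (chr7:83794840-83795089, minus strand) has 3. Bbs7 (chr3:36613390-36613639, minus strand) holds a pair that contains its 1 half-site, and Ift57 (chr16:49699044-49699293, plus strand) a pair and 2 half-sites, 1 of them inside the pair.
Tekt1: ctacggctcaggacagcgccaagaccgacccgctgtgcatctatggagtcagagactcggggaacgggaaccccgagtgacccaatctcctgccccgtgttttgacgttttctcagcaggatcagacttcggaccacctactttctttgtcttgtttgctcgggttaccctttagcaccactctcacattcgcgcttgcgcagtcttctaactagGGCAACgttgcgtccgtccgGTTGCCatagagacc
Spag16: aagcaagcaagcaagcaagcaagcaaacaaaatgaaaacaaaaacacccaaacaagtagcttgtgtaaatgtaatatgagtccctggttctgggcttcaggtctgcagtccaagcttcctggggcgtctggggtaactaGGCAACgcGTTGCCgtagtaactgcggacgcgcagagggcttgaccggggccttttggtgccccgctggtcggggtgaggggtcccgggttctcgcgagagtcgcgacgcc
Cfap161: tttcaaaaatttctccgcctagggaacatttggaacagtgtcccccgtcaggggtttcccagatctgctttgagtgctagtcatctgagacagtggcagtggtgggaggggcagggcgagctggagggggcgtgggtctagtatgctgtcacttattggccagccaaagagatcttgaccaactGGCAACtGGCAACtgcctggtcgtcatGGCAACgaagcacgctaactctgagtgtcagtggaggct
Bbs7: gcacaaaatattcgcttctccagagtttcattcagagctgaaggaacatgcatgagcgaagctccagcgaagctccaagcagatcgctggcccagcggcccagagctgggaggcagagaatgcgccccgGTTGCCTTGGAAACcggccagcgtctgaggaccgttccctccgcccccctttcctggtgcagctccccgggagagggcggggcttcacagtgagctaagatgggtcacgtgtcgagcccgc
Ift57: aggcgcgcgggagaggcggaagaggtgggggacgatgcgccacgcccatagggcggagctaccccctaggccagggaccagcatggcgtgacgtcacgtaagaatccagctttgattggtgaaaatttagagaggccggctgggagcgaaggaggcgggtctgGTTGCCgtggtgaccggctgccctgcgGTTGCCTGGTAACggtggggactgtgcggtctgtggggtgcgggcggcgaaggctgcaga

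Most transport genes were expressed in every EWAT sample. Of the 22 IFT and BBS genes, 17 were detected in all 8, and only Ift46 was detected in none. Their median level was 7.48 in C3 and 7.42 in S3 against 6.97 to 7.25 in the other 6. In the livers it was 5.62 to 5.75 on the separate liver scale, so the size of the tissue difference is not read from these medians. The 10 genes with C3 and S3 above the other 6 were Ift43, Ift80, Ift81, Ift88, Ift172, Bbs1, Bbs4, Bbs5, Bbs7 and Bbs12.

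IFT complex B carries cargo outward. Ift88, a core subunit, read 6.17, 6.52, 7.48 and 6.59 in C1 to C4 and 6.45, 6.36, 7.32 and 6.62 in S1 to S4, so that C3 and S3 lay 0.86 and 0.70 above the next sample, S4. Ift81, which binds tubulin, read 8.94 and 8.86 against 7.97 to 8.49, and both its other probes also had C3 and S3 highest. Ift172, a peripheral subunit, read 9.85 and 9.77 against 9.32 to 9.63 by its brightest probe, but its other 2 probes did not have both samples above the rest: one read 7.94 and 8.13 against 7.66 to 8.005, the other 7.31 and 7.35 against 6.81 to 7.45. Ift80 was detected in C3 and S3 at 5.39 and 5.16 and otherwise in 1 sample, between 4.58 and 4.85. Ift20, which also resides at the Golgi, varied little over the 8 samples, from 10.49 to 10.95, and Ift52 lay between 9.39 and 9.63. Ift27 at 8.83 to 9.28 and Ift22 at 6.88 to 7.55, both small GTPases of the complex, did not have C3 and S3 as the highest pair.

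IFT complex A returns cargo to the base. Ift43 read 9.47 and 9.43 in C3 and S3 against 8.77 to 9.29 in the other 6. Ift140 lay between 7.45 and 8.12 and Ift122 between 5.85 and 6.62, with C3 or S3 inside the range of the other 6. Of the BBSome subunits, Bbs4 read 8.12 and 7.89 against 7.16 to 7.74 and Bbs7 7.41 and 7.53 against 6.76 to 7.11. Bbs9 was lower in S3 than in C1, at 7.06 and 7.60. Bbs10, a chaperonin-like protein that helps to assemble the BBSome, read 6.49 in C3 and 6.54 in S3, among the lower of the 8 values from 6.47 to 6.80.

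Genes outside the set were read from lists of the same pathways. Of 45 other motile cilium genes, 36 had C3 and S3 above the other 6 and 20 by at least 1 log2 unit, where the shares over all genes were 8.52% and 1.63%; the same shares apply to the list counts that follow. Fam183b read 10.74 and 10.47 against 4.30 to 4.38, and Dynlrb2, a dynein light chain, 10.13 and 9.37 against 4.41 to 4.99. Of 12 regulators of multiciliation, 4 had both samples above the other 6, and Ccno, needed for centriole amplification, was the only one at least 1 log2 unit higher, at 6.35 and 6.74 against 4.31 to 4.67. Mcidas, Deup1 and Cdc20b, which act while multiciliated cells form, were detected in no EWAT sample. Of 21 other ciliary transport genes and 26 genes of the primary cilium's membrane and transition zone, 7 and 9 had C3 and S3 highest and none by 1 log2 unit. Dync2li1, of the motor for return transport, came near, at 8.15 and 8.37 against 7.14 to 7.45.

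Lists of epithelium markers followed these 2 samples to unequal degrees. Of 10 markers of transporting duct epithelium, 7 had C3 and S3 above the other 6, with a summed linear level of 13042 in C3 and 13794 in S3 against 5649 to 7253 in the others. Cldn2 read 10.04 and 9.97 against 4.26 to 5.08 and Lrp2, an endocytic receptor, 10.64 and 10.83 against 4.93 to 6.84, while Pax2 and Cubn were undetected in all 8. The 10 general epithelium markers summed to 3144 and 3123 in C3 and S3, to 4099 in S2, 2251 in S4 and 354 to 815 in C1, C2, C4 and S1. Only 2 of these 10 had C3 and S3 above the other 6, and none by 1 log2 unit. The part of either list in the cilium gene levels was not tested.

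Sperm tails share many of these parts, and a list of sperm markers was read as well. None of its 9 measured markers had C3 and S3 above the other 6, and their summed level was 511 in S3, 332 in C2, 270 in S4 and 203 to 216 in the other 5, C3 included. Prm1, a protamine, read 8.05 in S3, 7.02 in C2, 6.18 in S4 and 4.90 in C3, and Akap4 and Acrv1 were undetected in all 8. Of 9 epididymis markers, summed levels were 27202 in S2 and 21150 in S4, 470 in S3, 224 in C3 and 205 to 224 in the others, led by Spink8 and Defb42. S2 and S4 are the samples in which Rsph1 and Cfap52 came next after C3 and S3. Other high genes had other samples next, such as C4 for Cfap126 (5.98) and C2 for Cfap45 (4.97). A link between the sperm or epididymis markers and motile gene levels was not tested. Kidney tubule markers summed to 910 in C3 and 970 in S3 and were highest in S1, at 1120, where Kap read 8.53 against 4.23 to 4.41 in the other 7. Of 9 Sertoli and Leydig cell markers, Sox9 alone had C3 and S3 higher, at 10.77 and 10.33 against 7.40 to 8.10.

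Adipocyte and mesothelial markers were present in all samples. Summed levels of the 9 adipocyte markers were 46243 in C3 and 47557 in S3 against 49752 to 60608 in the other 6, so that C3 and S3 had the lowest sums. The 6 measured mesothelium markers summed to 1815 in C3 and 2550 in S3, inside the range of 1198 to 4339 of the others. C3 and S3 were single arrays on different chips. C2, on the chip of S3, and S4, on the chip of C3, had motile medians of 4.44 and 4.46. The part of the chip in the pattern was not tested.

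The study's main comparison, SOX6 against control oligonucleotide, showed no change past the test in those of these genes that were tested. In EWAT 40 of the 83 genes passed the detection filter (at least 3 of 8 samples), 19 of them motile. Of the 21 motile genes with the larger excess, 15 were detected in C3 and S3 alone, so the filter left them untested. None of the 40 passed limma's test, adjusted over 10978 genes, nor did any gene tested on the array (0%). None of the 40 had an unadjusted p under 0.05, while 549 of all genes did, and the smallest adjusted p of a member was 0.841. Groups without overlap were seen in none of the 40 and in 2.8% of all genes. The median difference, SOX6 minus control, was -0.02 both over the 40 genes and over all tested genes. C3 and S3 belong to opposite groups, and without both of them the count was again 0.

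The EWAT estimates that came nearest were small. Cfap97 was at 8.57 ± 0.13 (SD, n = 4) in control and 8.38 ± 0.08 in SOX6 EWAT, a difference of -0.19 in limma's fit (95% interval -0.41 to 0.04, adjusted p = 0.841). Ift43 was at 9.06 ± 0.30 and 9.28 ± 0.11, a difference of 0.22 (-0.11 to 0.55, adjusted p = 0.856). Genes of the C3 and S3 pattern had wide intervals because each group held 1 high sample: for Cfap126 the group means were 6.17 ± 1.28 and 6.14 ± 1.16 and the interval ran from -1.62 to 1.56. Intervals this wide leave moderate changes of such genes undetectable with 4 samples a group.

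In liver 27 of the 83 genes passed the filter and again none passed limma's test, against 21 of 8939 genes (0.235%). One of the 27, Cfap410, a protein of the cilium base, had an unadjusted p under 0.05, as did 884 of all genes. Its levels were 5.78, 5.58, 5.37 and 5.38 in control and 5.74, 5.81, 5.84 and 5.95 in SOX6 livers, which overlap by the first control value alone. The difference was 0.31 (95% interval 0.04 to 0.58, limma adjusted p = 0.431). Ift43 was the only member whose groups did not overlap, at 6.424 to 6.54 in control and 6.153 to 6.42 in SOX6 livers, where 5.83% of all tested genes were so separated. Its difference of -0.20 (-0.43 to 0.03) had a limma adjusted p of 0.583.

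Ift43 and Cfap97 thus had estimates of opposite sign in the tissues. Tested directly as an interaction over all 16 samples, the difference in response between EWAT and liver was 0.43 (95% interval 0.03 to 0.82) for Ift43 and -0.32 (-0.58 to -0.07) for Cfap97, with limma adjusted p-values of 0.758 and 0.704. None of 41 members tested passed, against 0.0174% of 11471 genes, and 3 had an unadjusted p under 0.05, the other being Ift27 at -0.30.

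**Figure D4:**
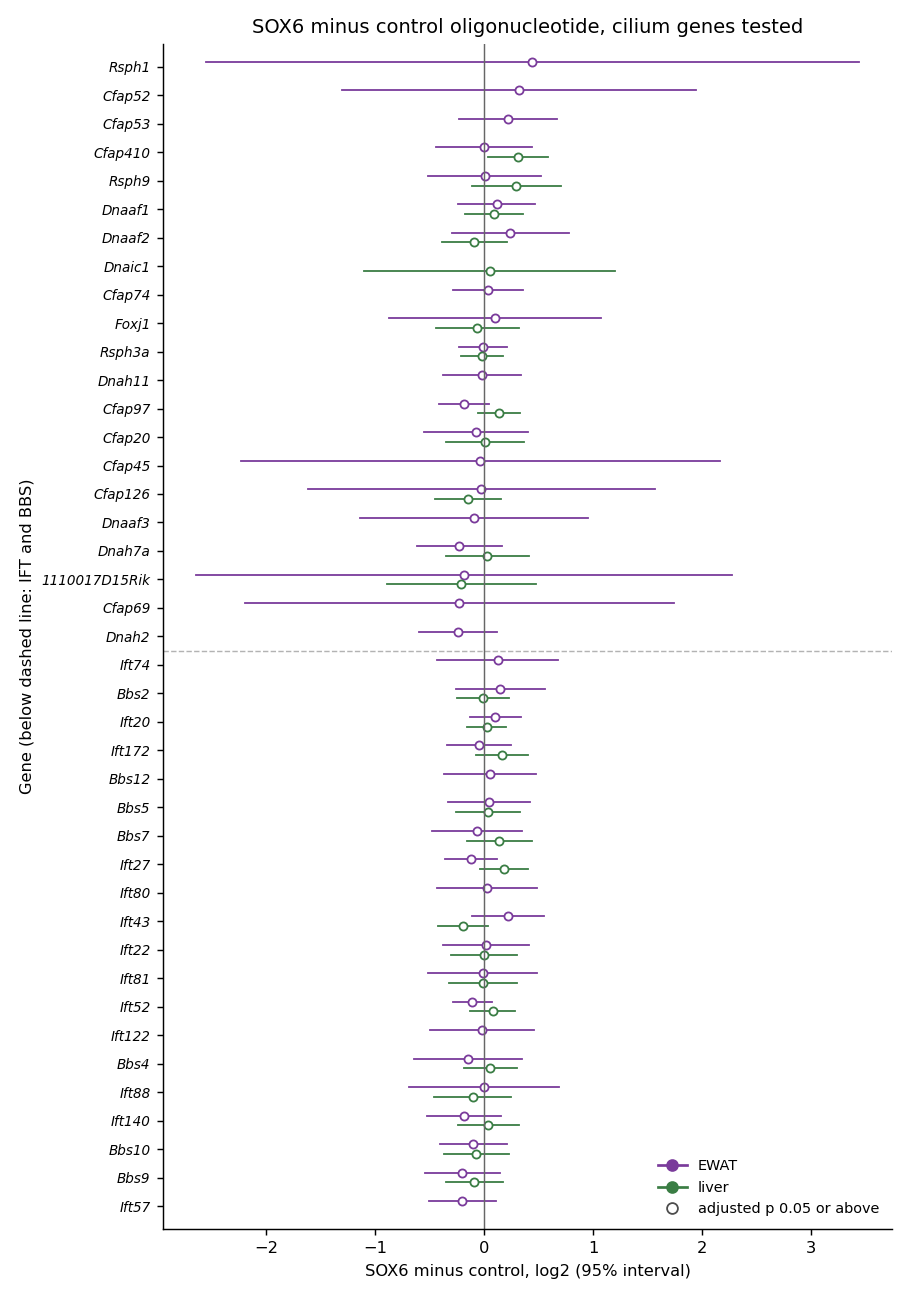
SOX6 minus control oligonucleotide in log2 units with 95% intervals from limma, for each cilium gene tested in EWAT (purple) and liver (green), 4 samples a group. All points are open (adjusted p of 0.05 or above), and the widest EWAT intervals belong to Rsph1, 1110017D15Rik, Cfap45 and Cfap69, which were high in C3 and S3.

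EWAT and liver differed in the transport genes. Normalized together, 15 of the 22 IFT and BBS genes were higher in control EWAT than in control liver past limma's adjusted threshold and 1 was lower, with 3 tested but not passing and 3 not tested because they did not pass the detection filter. Over all 10514 genes, 42.2% were higher in EWAT and 27.4% lower. In SOX6 animals, which are separate samples, 11 of the 22 were higher and none lower, 7 did not pass and 4 were not tested, against 41% and 28.3% of 10801 genes. The median of the tested members was 0.72 in control and 0.61 in SOX6 animals, beside 0.18 and 0.16 over all genes. Genes high in 1 tissue alone could pass the filter through it. With no filter, 24 of the 83 genes were again called in control animals. Among the 15, Ift57, Ift74 and Ift122 were detected in no control liver. The Ift57 mean in control EWAT, 4.81, lay below 5.05, a bound set by the dimmest signal detected on the liver arrays. No least size of its difference could thus be given.

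Ift43 showed the largest tissue difference of the transport genes tested. Its levels within each tissue were 8.77 to 9.47 in EWAT and 6.15 to 6.54 in liver. On the joint scale the control means were 8.72 ± 0.33 and 6.93 ± 0.05 (SD, n = 4), a difference of 1.79 (SE 0.15, limma adjusted p = 2.52e-06), and in SOX6 animals the difference was 2.22 (SE 0.11, adjusted p = 4.31e-08). Bbs2, a BBSome subunit detected in 4 of 8 livers, was higher by 1.51 and 1.67 in the 2 treatments (adjusted p = 3.59e-06 and 1.34e-05), Ift172 by 1.26 and 1.05 (1.19e-05 and 2.6e-05) and Ift81 by 1.06 and 1.05 (0.000718 and 0.000639). Ift140 was higher by 1.31 in control animals (1.15e-05). In SOX6 animals it was read by another probe and was higher by 0.75 (0.0011), which became 1.22 without liver S1 and 1.15 without liver S3, each with a change of probe. An offset of 50 in place of 16 lowered the Bbs2 differences to 0.956 and 1.08 and kept both calls.

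Ift20 was the exception, being as high in liver as in fat. Its control means were 10.76 ± 0.09 in liver and 10.53 ± 0.13 in EWAT, a difference of -0.23 (limma adjusted p = 0.0418) that no longer passed without EWAT C1 or C4 or without any 1 of the 4 livers, nor without the detection filter (adjusted p = 0.0713), and that became -0.44 with the mean of its probes (0.000757). In SOX6 animals it was -0.14 (adjusted p = 0.261). Bbs10 was also at like levels, 0.24 and 0.27 lower in EWAT without passing (adjusted p = 0.141 and 0.0971). Ift88 was higher in EWAT by 0.45 and 0.57 without passing (adjusted p = 0.145 and 0.0574), with C3 and S3 widening its spread.

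Few motile genes could be compared between the tissues, because a gene had to be detected in at least 3 samples of 1 tissue. In liver 46 of the 59 were not detected in any sample. In EWAT 15 of the 21 with the larger excess were detected only in C3 and S3. Of the 59, 16 were tested in control animals, of which 5 were higher and 3 lower in EWAT, and 15 in SOX6 animals, with 5 and 3. Over all genes the shares were 42.2% higher and 27.4% lower in control animals and 41% and 28.3% in SOX6 animals, and nothing particular to the motile genes is read from their counts. Rsph9 was higher by 2.28 in control (SE 0.23, limma adjusted p = 7.66e-06) and by 1.94 in SOX6 animals (SE 0.23, adjusted p = 3.79e-05). Dnaaf1 was higher by 1.18 and 1.21 (adjusted p = 7.04e-06 and 0.000141) by the probe that was flat across EWAT. Dnah11, by its probe that was flat across EWAT, was not above background on any liver array. By that probe it was at least 1.43-fold higher in control EWAT and at least 1.36-fold in SOX6 EWAT (limma adjusted p = 1.8e-05 and 6.81e-05). This bound was set by the dimmest signal detected on the liver arrays. The second Dnah11 probe, which was high in C3 and S3 alone, was not used in this test. Cfap410 was higher by 0.76 and 0.44 (adjusted p = 0.00185 and 0.0453) and Rsph3a by 0.37 and 0.37 (0.0111 and 0.00214).

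The motile genes lower in EWAT were Cfap20, by 0.95 in control and 1.03 in SOX6 animals (limma adjusted p = 0.00181 and 0.000428), Dnah7a, by 0.51 and 0.67 (0.0046 and 0.0252), and 1 gene in each treatment alone. Cfap20 is also found outside cilia. Dnaaf2 was lower by 0.53 in control animals (adjusted p = 0.00443) and 0.22 below liver in SOX6 animals without passing (0.364), and leaving out EWAT C2 or liver C1, C2 or C3 moved the control value to between -0.15 and -0.33, which no longer passed, each time with the gene's other probe. Dnaic1 was detected in 1 of 4 EWAT samples of each treatment, C3 and S3, and otherwise lay at background there, so the size of its difference from liver is uncertain. The fitted value was -1.28 in SOX6 animals (adjusted p = 0.0137) and -1.11 in control animals without passing (0.118). The SOX6 call of Dnaic1 was lost without EWAT S2 and S4 (adjusted p = 0.0899), and that of Dnah7a without EWAT S2 or liver S3 or S4 (adjusted p = 0.0552, 0.0668 and 0.0701).

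Dnaic1 was the one motile gene with single livers well above the rest. Its liver levels were 7.26, 4.65, 4.99 and 5.46 in C1 to C4 and 5.24, 6.76, 5.19 and 5.36 in S1 to S4, and a second probe also read highest in C1 and S2, at 6.12 and 5.34. In GRCm38.p6 the last 15 bases of Dnaic1 (chromosome 4, 41569647 to 41638158) overlap Enho, which encodes a secreted liver peptide. Enho levels in liver were 8.30, 7.44, 7.86 and 8.11 in C1 to C4 and 8.11, 8.25, 7.67 and 8.06 in S1 to S4, with C1 and S2 the highest there too. By the same probe Enho read 7.58 in EWAT S2 and 7.15 in EWAT S4, where Dnaic1 was undetected. In EWAT C3 and S3, where Dnaic1 was detected, Enho read 6.02 and 5.46. The part of Enho in the Dnaic1 signal was not tested.

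**Figure D5:**
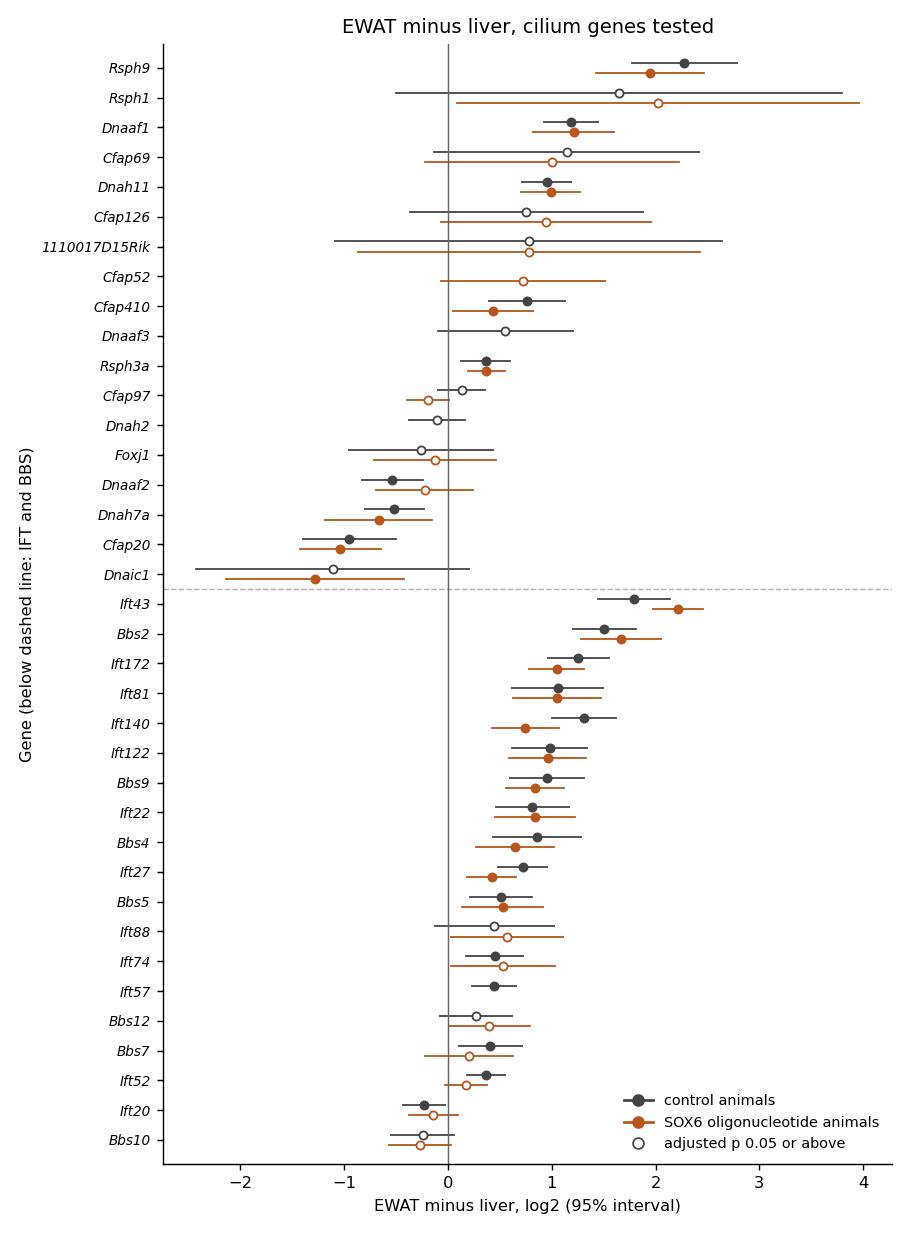
EWAT minus liver in log2 units with 95% intervals from limma, in control animals (grey) and SOX6 animals (orange), 4 samples a group, for the cilium genes tested; filled points have an adjusted p under 0.05. Most IFT and BBS genes lie to the right of 0, Ift20 and Bbs10 lie slightly to the left of 0, and Rsph1, Cfap69 and 1110017D15Rik have wide intervals.

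Counts for related lists stand beside the same shares of all genes, 42.2% higher and 27.4% lower in control animals. Of 26 genes of the primary cilium's membrane and transition zone, 19 were tested in control animals and 17 were higher in EWAT and none lower. Of 21 other ciliary transport genes, 10 were tested, 9 were higher and 1 lower. Of 45 other motile cilium genes, 11 were tested, 5 were higher and 2 lower. Genes could pass the filter through EWAT alone. Detected in no liver were 14 of the 26, 10 of the 21 and 36 of the 45 genes. The counts thus lean towards genes high in EWAT and are a description only.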

How the data were processed

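RNA of liver and EWAT was measured on 24 Illumina arrays, and the submitters' processing notes name GenomeStudio. The deposited signals are background-subtracted probe intensities, and a detection p-value stands beside each, per the file headers. A deposited table of the authors' log2 values was found to be quantile normalized over the 24 arrays and served as an alternative. Of 45281 probes, 34885 paired with 1 gene in the platform annotation, 18 with several and 10378 with none, and all 83 cilium genes matched the RefSeq table of GRCm38.p6.

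Signals were corrected, given an offset of 16, quantile normalized and taken to log2 with limma 3.58.1 (neqc) in R 4.3.3, within each tissue or over both tissues for comparisons between them. The offset compresses differences of dim probes. Repeat arrays of a sample were averaged. A gene was read by its probe with the highest mean level, among probes that passed the detection filter where any did. Tests used limma with an intensity trend on genes detected in at least 3 samples of the comparison, adjusted over all of them by the Benjamini-Hochberg method, with 0.05 as threshold. The test was checked on simulated data. The labels do not describe how separate the samples of a group were beyond their animal numbers, and p-values measure the spread between samples. The number of arrays limits the precision.

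Genes were named as the 7 chosen singly, the 3 of each family with the highest mean EWAT level, those past or nearest a test's threshold and motile genes detected in every EWAT sample or in liver, and others by range, while some further examples were chosen after their values were seen. The members and lists were chosen with earlier results of these data known. Alternatives covered the values, offset, probe, filter, variance model, replicate number, chip and samples left out.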

Additional observations from a re-analysis of the deposited data

Results flagged for a closer look

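In 164 groups of 4 samples, 24 had a highest or lowest sample far from the others, where chance gives about 1 in 20 groups, and 14 of the 24 were EWAT C3 or S3. Those 2 samples had been singled out before, so their values here are a description and the chance rate does not apply to them. C3 stood apart among control EWAT samples for Zmynd10 (6.52), Spag16 (7.15), Dnaaf3 (6.54), Dnali1 (7.90), Rsph1 (9.995), Tekt1 (8.54) and Dnaic1 (6.52), and S3 among SOX6 EWAT samples for Zmynd10 (5.98), Spag16 (6.81), Dnali1 (7.78) and Tekt1 (8.54). The motile median stood apart at 5.90 in C3 and 5.71 in S3, and the IFT and BBS median at 7.48 in C3.

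Other samples stood apart in single genes. In EWAT these were Spag6 in C2 (5.10), Dnah11 in C4 (6.17, above the other controls), Ift20 in C1 (10.49, below them) and Tekt5 in S2, which was undetected at 4.46. In liver, Spag17 in C1 (4.50) and Dnaaf3 in C3 (4.65) and S3 (4.63) stood apart without being detected. Liver C2 was high for Ift52 (8.68) and low for Cfap126 (4.49), and liver S2 was high for Dnaic1 (6.76).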

How the results depend on the processing

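The counts of cilium genes passing a test kept within 1.5 times their value under each alternative, and 846 values of single genes kept their direction and side of the threshold. Same-numbered control and SOX6 samples deviated from their group means with correlations of 0.247, -0.085, 0.583 and 0.209 in EWAT, where 0.583 is that of C3 and S3. In liver the correlations were 0.084, -0.021, 0.081 and 0.332. Between EWAT and liver of 1 number they were -0.032, 0.069, -0.053 and 0.208 in control and 0.059, 0.189, 0.058 and 0.019 in SOX6 samples. Some samples correlated best with their own number, and whether a number stands for 1 mouse is not settled by these values. With the replicate number as a block, no cilium gene passed for SOX6 in EWAT or liver, 24 passed between the tissues in control and 20 in SOX6 animals, and Ift20 lost its call (adjusted p = 0.0559). Over all liver genes the block gave 43 calls for SOX6 in place of 21. The liver count was 13 without the variance trend, 113 with the chip as a term, and 12 to 22 with 1 sample left out, being 12 without control C2 and 12 without SOX6 S3.

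With 1 sample left out, cilium genes passing between the tissues numbered 22 to 27 in control and 17 to 21 in SOX6 animals, and 0 for SOX6 in either tissue. Without EWAT C3 and S3 the tissue counts were 27 and 18. The EWAT SOX6 value of Dnaaf2, 0.24, reversed to -0.041 with the mean of its probes, -0.25 without S2 and S4, -0.24 without C3, S3, S2 and S4, and -0.28 without S2, where single samples left out gave -0.28 to 0.39. That of Dnah2, -0.25, became 0.093 without S2 and S4. In each case the probe or probes read also changed. The difference in response between tissues reversed for Dnaaf2 with the mean of probes (-0.022) and without those 4 samples (-0.30), and for Bbs2 without them (-0.24), where the cause was not tested. Alternatives to the larger excess, and leaving out S2 and S4 from both counts, were chosen after seeing the data. Without S2 and S4, 33 motile genes and 12 transport genes had C3 and S3 above the remaining samples, and 21 and 0 by at least 1 log2 unit. An offset of 50 lowered tissue differences of dim genes by over 1.5 times without ending a call, among them 0.52 for Ift122 in control and 0.518 in SOX6 animals, -0.271 and -0.357 for Dnah7a, -0.286 for Dnaaf2 and -0.719 for Dnaic1. An offset of 50 left 16 motile genes with that larger excess. Genes near background had too little signal for differences to be measured.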
